A study of Homo sapiens with 9 samples.

Results

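The matrix proteases and their inhibitors are the genes whose symbol is MMP, ADAM, ADAMTS or TIMP followed by a number. The rule used the symbols alone and no measured value, and it found 65 of the 22605 rows of the count table: 22 *MMP*, 20 *ADAM*, 19 *ADAMTS* and 4 *TIMP* genes. Of these, 55 had at least 1 count, 44 had enough counts to be tested, 11 had counts but fell below the filter on low counts, and 10 were at 0 in every library. RNA was measured by sequencing of polyadenylated transcripts in A375, an established line of human melanoma cells with an activating BRAF mutation. The cells were grown in medium with serum and received Salvianolic acid B (SalB), a polyphenol from the root of *Salvia miltiorrhiza*, for 48 h at 100 µM or at 200 µM. Untreated A375 cells, cultured alongside without SalB, were the control. Each of the 3 groups had 3 libraries that the labels call biological replicates, and all 9 libraries carry 1 batch value. All of the data come from 1 line in culture, so fewer cells of a type and less RNA per cell cannot be told apart.

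Matrix metalloproteinases (MMPs) are zinc enzymes that cut collagens, gelatin, proteoglycans and other matrix proteins, and most are made as inactive precursors that another protease opens. The ADAMs are membrane-bound relatives, several of which release growth factors, cytokines and adhesion proteins from the cell surface, and the ADAMTS enzymes are secreted relatives that trim proteoglycans, procollagens and clotting proteins. The tissue inhibitors of metalloproteinases (TIMPs) bind the active site of these enzymes. In melanoma the families are known for their part in invasion through basement membrane and dermis, and a transcript level says nothing about how much of an enzyme is active.

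Many *MMP* promoters and that of *TIMP1* carry a described binding site for AP-1, the dimer of Fos and Jun proteins. The RefSeq windows of the 250 bases before the start of a gene (GRCh38.p14) were matched by symbol to 38 of the 65 members, which have 39 windows. They were searched on both strands for TGANTCA, the AP-1 consensus with any base in the middle, and for TGAGTAA, the related form in the *TIMP1* promoter. TGANTCA stood in 4 of the 39 windows (10.3%), those of *MMP10*, *MMP7*, *ADAMTS12* and *MMP20*, against 6.57% of 35116 RefSeq windows of the same length. TGAGTAA stood in 1 of the 39 (2.56%), against 2.21% of all windows. The windows of 4 members are shown as examples with and without the motifs: *MMP10* and *TIMP1* were higher at 200 µM than at 100 µM, and *MMP8* and *MMP15* were lower. They were chosen with these values known, and whether the motifs go with direction was not tested. No window was matched for *MMP1*, *MMP2*, *MMP3*, *MMP9*, *ADAMTS1*, *ADAMTS9* or *TIMP2*, among other members. *ADAMTS12*, whose window holds TGANTCA, was lower at 200 µM than at 100 µM (log2 fold change -0.38 ± 0.10, edgeR adjusted p = 0.012), while *MMP14*, *MMP24*, *TIMP3* and *ADAM17* were higher and their windows hold neither motif. Capitals mark the AP-1 letters, which start 67 bases before the RefSeq start of *MMP10* (chr11:102780629-102780878, minus strand) and 101 bases before that of *TIMP1* (chrX:47582186-47582435, plus strand). The windows of *MMP8* (chr11:102724955-102725204, minus strand) and *MMP15* (chr16:58025504-58025753, plus strand) hold neither motif, which says only that these letters are not in this stretch. The RefSeq start equals the GENCODE v29 start of *MMP10*, but lies 123 bases downstream of the GENCODE start of *TIMP1*, 188 bases downstream of that of *MMP15* and 2096 bases downstream of that of *MMP8*. The *MMP8* window therefore lies within the gene as GENCODE gives it, and those of *TIMP1* and *MMP15* span its start.
MMP10: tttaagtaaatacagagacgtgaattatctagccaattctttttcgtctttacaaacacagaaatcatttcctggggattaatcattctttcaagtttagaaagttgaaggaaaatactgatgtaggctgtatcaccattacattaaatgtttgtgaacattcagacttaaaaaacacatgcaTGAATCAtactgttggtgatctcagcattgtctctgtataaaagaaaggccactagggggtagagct
TIMP1: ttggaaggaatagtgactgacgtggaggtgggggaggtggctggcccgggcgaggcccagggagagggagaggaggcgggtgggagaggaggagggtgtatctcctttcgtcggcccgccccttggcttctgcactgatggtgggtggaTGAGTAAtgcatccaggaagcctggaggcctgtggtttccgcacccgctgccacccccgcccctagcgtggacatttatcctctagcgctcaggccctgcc
MMP8: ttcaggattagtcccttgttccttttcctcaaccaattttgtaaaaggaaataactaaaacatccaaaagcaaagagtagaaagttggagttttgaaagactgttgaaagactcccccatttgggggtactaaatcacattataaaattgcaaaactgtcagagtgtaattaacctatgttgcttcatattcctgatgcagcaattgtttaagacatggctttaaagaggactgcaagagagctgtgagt
MMP15: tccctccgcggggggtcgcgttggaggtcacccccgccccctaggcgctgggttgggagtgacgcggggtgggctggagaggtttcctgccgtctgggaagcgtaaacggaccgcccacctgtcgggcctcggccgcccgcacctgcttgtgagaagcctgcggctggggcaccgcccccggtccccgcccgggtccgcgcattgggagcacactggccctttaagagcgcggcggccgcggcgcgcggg
The GC box GGGCGG stood in 25 of the 39 windows (64.1%), against 42.6% of all windows, and 5 copies of it lie in the *MMP15* window. TATAAA, searched on the strand of the gene alone, stood in 6 of the 39 (15.4%), against 6.8%, and starts 31 bases before *MMP10*. A match of letters is a description and not a measured binding site.

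Libraries held 29658753 to 30063195 counts in untreated cells, 29996059 to 30629685 at 100 µM and 27348621 to 28468350 at 200 µM, and a floor of 3 counts was worth 0.0979 to 0.11 CPM. CPM are counts relative to library size, with the sizes scaled by trimmed mean of M-values (TMM). The melanocyte lineage factor *SOX10* averaged 341 TPM (counts scaled by transcript length and library size) in untreated cells, while the pigment genes *PMEL*, *MLANA* and *TYR* had at most 20, 15 and 3 counts in any library. Leukocyte markers *CD3E*, *MS4A1* and *TYROBP* and the stromal marker *PDPN* were at 0 throughout, while other markers on those lists were not: *CD68* averaged 32.6 TPM, *FAP* 10.2, *LUM* 8.64, *LYZ* 7.94, *KDR* 5.84 and *PDGFRB* 5.26 TPM in untreated cells. The third library at 200 µM stood apart: the 13 mitochondrially encoded mRNAs held 5.10% of its scaled counts, against 1.89% and 1.83% in the other libraries of its group, 2.75% to 3.06% at 100 µM and 2.14% to 2.36% in untreated cells.

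Across the 44 tested members, edgeR's quasi-likelihood test with Benjamini-Hochberg adjustment over 13968 genes called a change at an adjusted p under 0.05. At 200 µM against untreated cells it called 19 members, 12 higher and 7 lower, or 43.2% of those tested, where 37.3% of all genes tested were called (19.8% higher and 17.5% lower). At 100 µM against untreated cells it called 22, 13 higher and 9 lower, or 50%, where 37.1% of all genes were called (18.9% higher and 18.2% lower). Between 200 µM and 100 µM it called 23, 11 higher and 12 lower, or 52.3%, where 44.4% of all genes were called (22.4% higher and 21.9% lower). No test compared the members' share with that of all genes. Between the doses the 11 higher members were *TIMP1*, *TIMP2*, *TIMP3*, *MMP1*, *MMP3*, *MMP10*, *MMP14*, *MMP24*, *ADAM17*, *ADAMTS1* and *ADAMTS9*. The 12 lower ones were *MMP2*, *MMP8*, *MMP15*, *MMP16*, *ADAM9*, *ADAM19*, *ADAMTS4*, *ADAMTS7*, *ADAMTS10*, *ADAMTS12*, *ADAMTS16* and *ADAMTS19*. Leaving out 1 library ended the call between the doses for *MMP16* (the third at 100 µM, adjusted p = 0.051), for *MMP24* (any but the third at 200 µM, 0.06 to 0.17) and for *ADAMTS16* (any but the second at 100 µM or at 200 µM, 0.053 to 0.12). The median log2 fold change of the members was -0.05 at 200 µM (0.00 over all genes), 0.15 at 100 µM (-0.01) and -0.33 between the doses (-0.01). Without the third library at 200 µM the same comparisons called 23, 27 and 28 members (52.3%, 61.4% and 63.6% of 44), where 53.8%, 56.1% and 54.2% of 14153 genes were called, so at 200 µM against untreated cells the members' share was then below that of all genes.

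**Figure D1:**
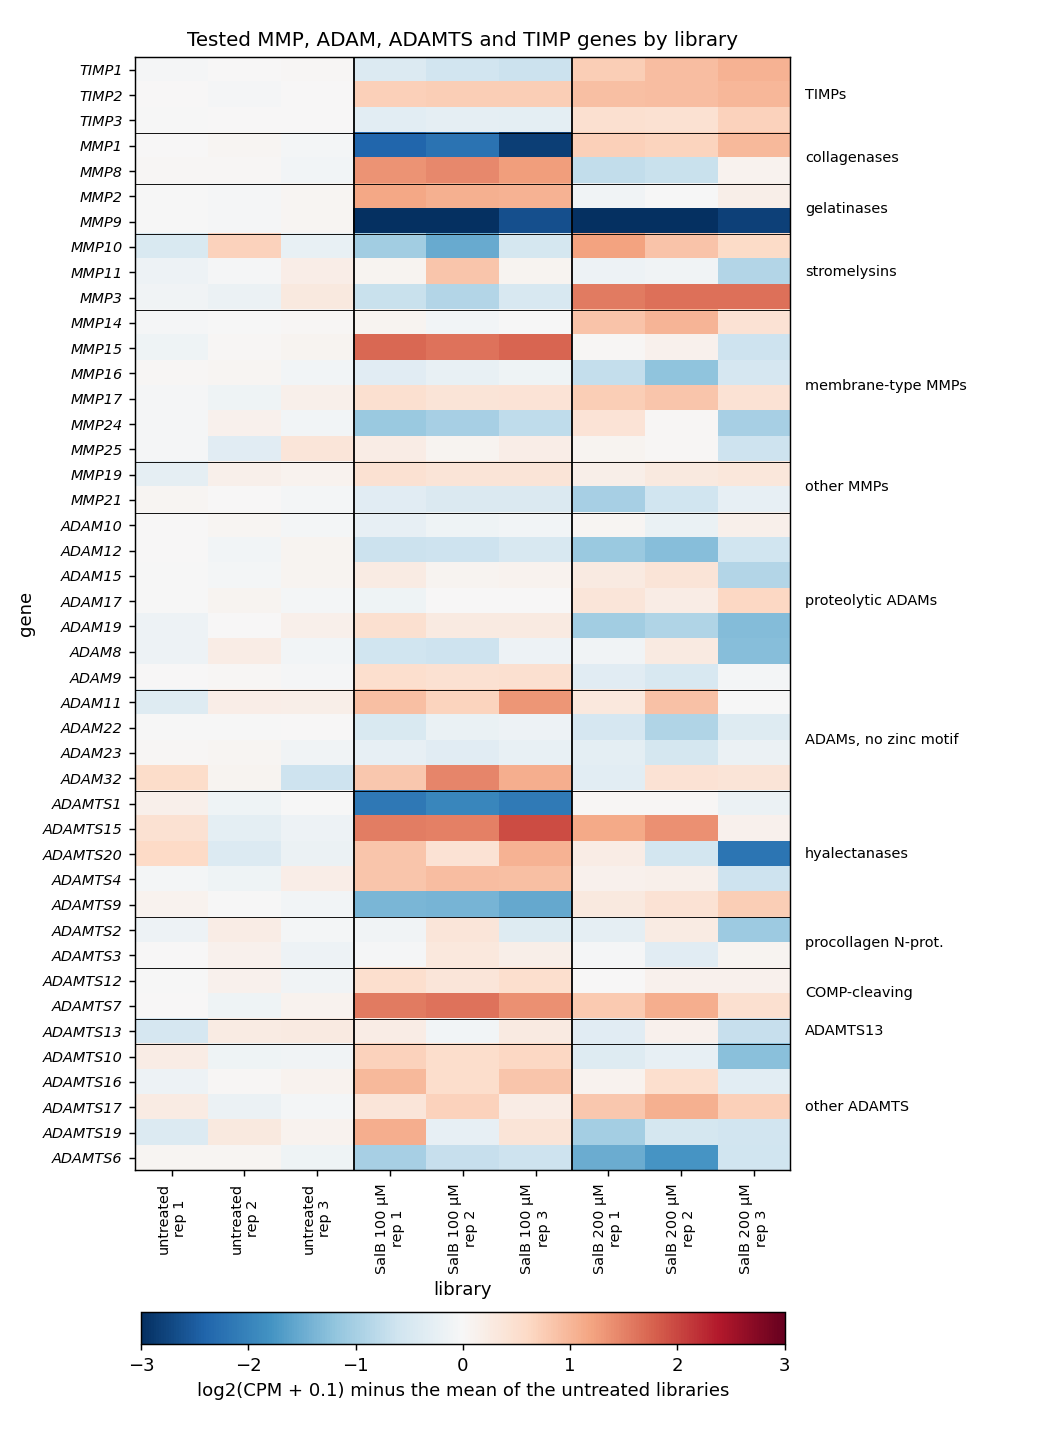
Heat map of the 44 tested members (rows, grouped by role; COMP is cartilage oligomeric matrix protein) in the 9 libraries (columns, 0, 100 and 200 µM). Colour gives log2(CPM + 0.1) minus the mean of the untreated libraries and saturates at 3 in either direction. *MMP9* is low at both doses, while *MMP1*, *MMP3* and *ADAMTS9* are low at 100 µM and high at 200 µM.

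Of the 44 tested members, 19 (43.2%) were called at 1 dose alone, against 37.3% of all genes, and 6 (13.6%) in the same direction at both doses, against 13.6%. Called in opposite directions at the 2 doses were 5 members (11.4%, against 4.93% of all genes), each lower at 100 µM and higher at 200 µM against untreated cells: *MMP1*, *MMP3*, *TIMP1*, *TIMP3* and *ADAMTS9*. This combination was called in 2.77% of all genes, and only *MMP1* and *TIMP1* held both calls under all 19 alternatives. Called higher at both doses were 4 (*TIMP2*, *MMP17*, *ADAMTS7* and *ADAMTS15*), and called lower at both were 2 (*MMP9* and *ADAM12*). At 100 µM alone 9 were called higher and 2 lower, and at 200 µM alone 3 were called higher and 5 lower. Those 5 were *ADAM19*, *ADAM22*, *ADAM23*, *ADAMTS6* and *MMP16*. With the 2 groups compared alone, each of them was also called at 100 µM, *ADAM19* higher and the others lower. That fit called 61.2% of all genes, so these members are not shown to be particular to 200 µM. The remaining 14 tested members (31.8%, against 44.2% of all genes) were called at neither dose. Both comparisons use the same untreated libraries, so their values are set side by side without a measure of agreement, and the difference between the doses is tested in the comparison of 200 µM with 100 µM.

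**Figure D2:**
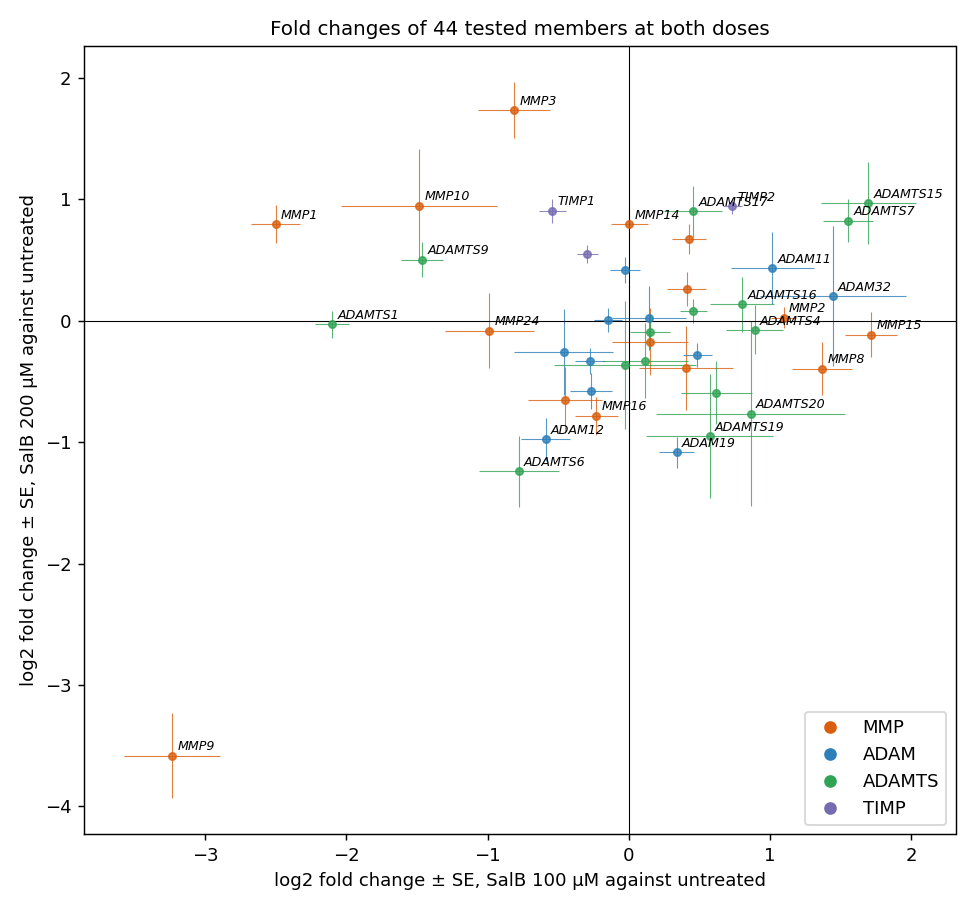
Log2 fold change ± SE of the 44 tested members at 100 µM (horizontal axis) and at 200 µM (vertical axis), each against the same untreated libraries, coloured by family. *MMP9* lies farthest to the lower left, where *ADAMTS6* and *ADAM12* also lie. Members at the upper left include *MMP1*, *MMP3*, *MMP10*, *ADAMTS9* and *TIMP1*.

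As a family the TIMPs had a higher summed TPM than the MMPs, the ADAMs or the ADAMTS enzymes in every group. TPM, computed from the counts and the exon lengths of GENCODE v29, summed over the 4 TIMPs to 1424 ± 37.5 in untreated cells, 1215 ± 8.55 at 100 µM and 2209 ± 28.9 at 200 µM (SD, n = 3 each). *TIMP3*, which binds to the matrix and also inhibits several ADAM and ADAMTS enzymes, led every group with 983 ± 25.1, 849 ± 26.7 and 1402 ± 26.0 TPM at 0, 100 and 200 µM. It made up 44.8%, 37.4% and 47.0% of the TPM of all 65 members at these doses. *TIMP1* followed in untreated cells with 397 ± 12.5 TPM and at 200 µM with 726 ± 44.3 TPM, while *MMP2*, with 402 ± 11.1 TPM, stood second at 100 µM.

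*TIMP1* (ENSG00000102265, GRCh38 chromosome X, 47582313 to 47586789, plus strand, protein-coding), a secreted inhibitor of most MMPs, had 162, 165 and 168 CPM in the untreated libraries, 124, 110 and 106 CPM at 100 µM, and 273, 311 and 342 CPM at 200 µM. The groups did not overlap: all 3 libraries at 100 µM lay below the untreated ones and all 3 at 200 µM lay above. The log2 fold change was 0.90 ± 0.10 at 200 µM (edgeR adjusted p = 0.00015), -0.54 ± 0.10 at 100 µM (adjusted p = 0.0026) and 1.45 ± 0.10 between 200 µM and 100 µM (adjusted p = 6.8e-06). *TIMP3* (chromosome 22, 32801701 to 32863043, plus strand) had 1200, 1226 and 1228 CPM in untreated cells, 971, 1006 and 1000 CPM at 100 µM, and 1709, 1669 and 1963 CPM at 200 µM. It took the same order as *TIMP1*, with no overlap between groups. Its log2 fold change was 0.55 ± 0.07 at 200 µM (adjusted p = 0.00053) and -0.30 ± 0.07 at 100 µM (adjusted p = 0.013). The decrease at 100 µM was lost without the first or the second library at 100 µM (adjusted p = 0.05 to 0.054).

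*TIMP2* (chromosome 17, 78852977 to 78925387, minus strand), which both inhibits MMPs and helps MMP14 to activate the MMP2 precursor, had 66.8, 64.5 and 66.2 CPM in untreated cells, 109, 110 and 109 CPM at 100 µM, and 123, 126 and 131 CPM at 200 µM. All treated libraries lay above all untreated ones, and those at 200 µM lay above those at 100 µM. Its log2 fold change was 0.94 ± 0.07 at 200 µM (edgeR adjusted p = 1.3e-05) and 0.73 ± 0.07 at 100 µM (adjusted p = 6.3e-05). The further step between the doses was small, at 0.21 ± 0.06 (adjusted p = 0.026), and it was not called in 6 of the 9 fits without 1 library, those without the first or the third untreated library, any library at 100 µM or the first at 200 µM (adjusted p = 0.051 to 0.10). *TIMP4* had 2, 5 and 0 counts in the 3 libraries at 100 µM and 0 in the other 6, which is below the filter, and 10.3% of its exon bases overlap *SYN2* on the opposite strand.

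**Figure D3:**
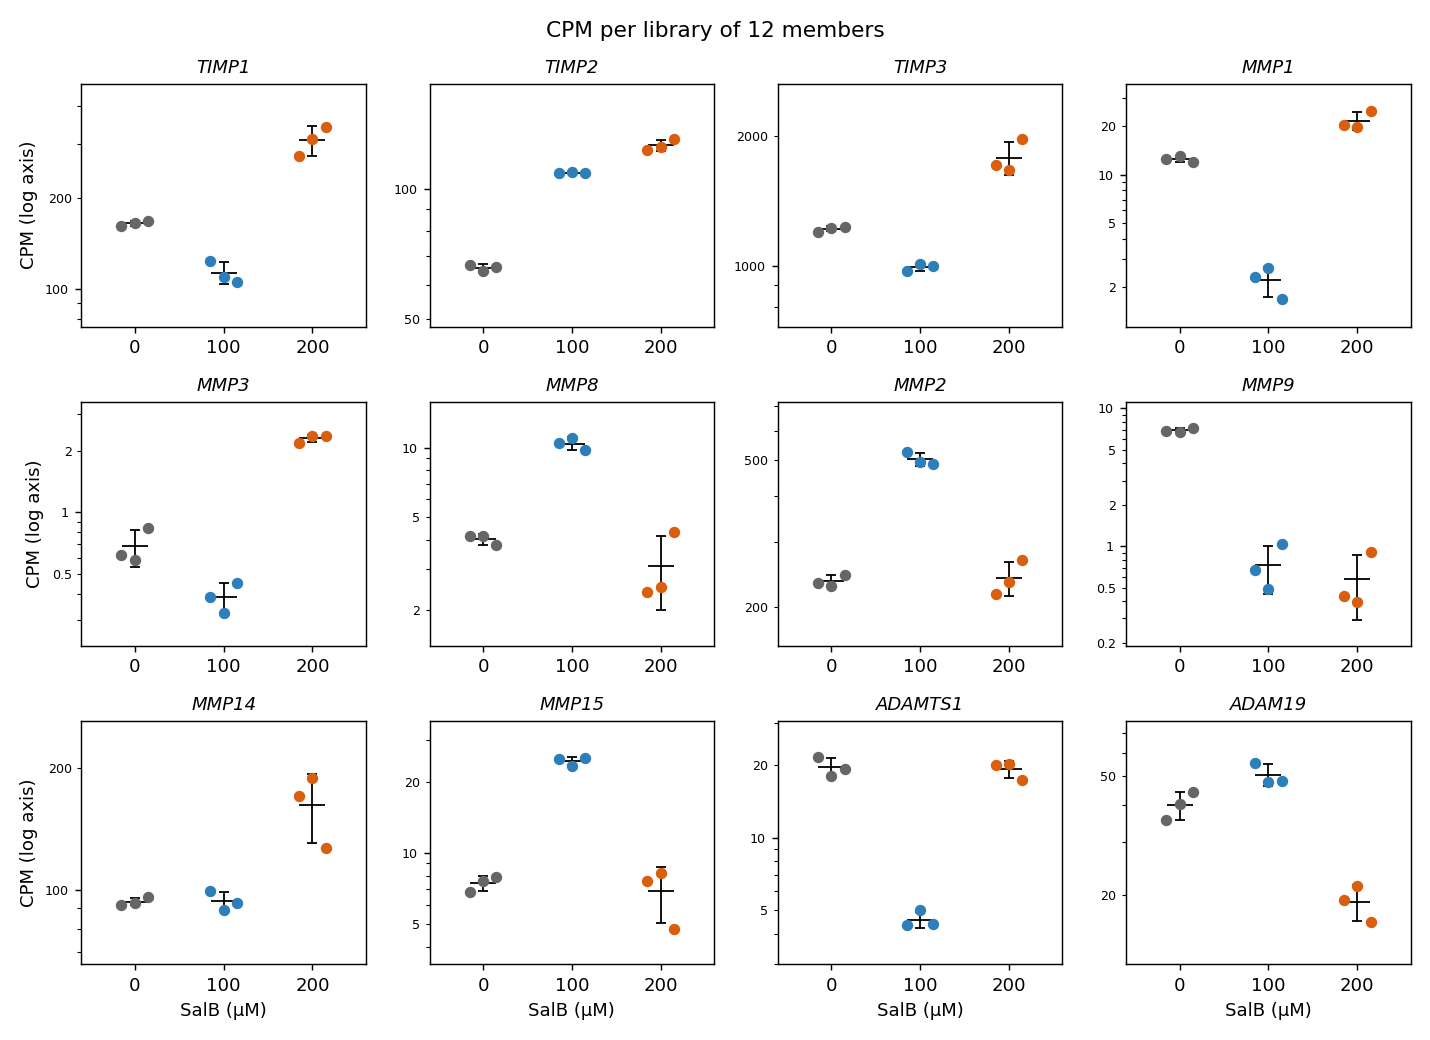
CPM of 12 members in each library (log axis) by SalB dose, with the mean and SD of 3 libraries as bars. The TIMPs, *MMP1*, *MMP3* and *MMP9* show no overlap between untreated and treated libraries at either dose, while *MMP2*, *MMP15* and *ADAMTS1* depart from the untreated level at 100 µM.

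The collagenases, which cut fibrillar collagen, moved in opposite directions at 100 µM. *MMP1* (ENSG00000196611, chromosome 11, 102789920 to 102798160, minus strand), the interstitial collagenase, had 12.6, 13 and 12 CPM in untreated cells, 2.31, 2.63 and 1.69 CPM at 100 µM, and 20.5, 19.9 and 24.8 CPM at 200 µM. The libraries at 100 µM were all below, and those at 200 µM all above, the untreated range. *MMP1* was 5.66-fold lower at 100 µM (log2 fold change -2.50 ± 0.17, edgeR adjusted p = 1.7e-05) and 1.74-fold higher at 200 µM (0.79 ± 0.16, adjusted p = 0.0038). Between 200 µM and 100 µM it differed 9.82-fold (3.30 ± 0.17, adjusted p = 1.6e-06), the largest change of any tested member in that comparison.

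*MMP8* (chromosome 11, 102711795 to 102727050, minus strand), the neutrophil collagenase, had 4.16, 4.17 and 3.78 CPM in untreated cells, 10.4, 11.1 and 9.72 CPM at 100 µM, and 2.39, 2.49 and 4.33 CPM at 200 µM. It was high in all 3 libraries at 100 µM, whereas at 200 µM the third library lay above the untreated range and the other 2 below it. The increase at 100 µM was 2.58-fold (log2 fold change 1.37 ± 0.21, adjusted p = 0.0013). At 200 µM the change was -0.40 ± 0.22 (adjusted p = 0.19), and without the third library it was -0.71 (adjusted p = 0.0014). The third collagenase, *MMP13*, had between 0 and 10 counts per library and was not tested.

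The gelatinases cut denatured collagen and the type IV collagen of basement membrane. *MMP9* (ENSG00000100985, chromosome 20, 46008908 to 46016561, plus strand) had 6.83, 6.72 and 7.26 CPM in untreated cells, 0.674, 0.487 and 1.04 CPM at 100 µM, and 0.435, 0.392 and 0.913 CPM at 200 µM. Every treated library lay far below every untreated one, and the ranges at the 2 doses overlapped. *MMP9* was 12-fold lower at 200 µM (log2 fold change -3.58 ± 0.35, edgeR adjusted p = 9.1e-05) and 9.41-fold lower at 100 µM (-3.23 ± 0.34, adjusted p = 0.00016), the largest decrease of any tested member at each dose. Of its exon bases, 18.4% overlap *SLC12A5-AS1* on the opposite strand; since the strand setting of the counting is not given, the reads of the pair cannot be told apart and its level is uncertain. Between the doses *MMP9* differed by -0.35 ± 0.37 (adjusted p = 0.48), and without the third library at 200 µM by -0.83 (adjusted p = 0.049).

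*MMP2* (chromosome 16, 55389700 to 55506691, plus strand), the second gelatinase, had 233, 229 and 245 CPM in untreated cells, 527, 495 and 488 CPM at 100 µM, and 217, 234 and 267 CPM at 200 µM. It was high at 100 µM in all 3 libraries, and the libraries at 200 µM spanned the untreated range. The log2 fold change was 0.03 ± 0.09 at 200 µM (adjusted p = 0.85) and 1.10 ± 0.09 at 100 µM (adjusted p = 3.7e-05). *MMP2* was the most abundant MMP per length in every group and made up 40.4% of the summed TPM of the MMPs in untreated cells, 60.7% at 100 µM and 37.6% at 200 µM. The summed TPM of the 22 MMPs were 439 ± 9.30, 661 ± 9.91 and 470 ± 33.9 at 0, 100 and 200 µM.

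The stromelysins cut proteoglycans, laminin and fibronectin and can open the precursors of other MMPs. *MMP3* (chromosome 11, 102835801 to 102843803, minus strand) was sparse, with 0.624, 0.586 and 0.844 CPM in untreated cells, 0.385, 0.324 and 0.454 CPM at 100 µM, and 2.18, 2.35 and 2.34 CPM at 200 µM. The libraries at 200 µM were all well above the rest, and those at 100 µM lay a little below the untreated ones. *MMP3* was 3.33-fold higher at 200 µM (log2 fold change 1.73 ± 0.23, edgeR adjusted p = 0.0005). Its lower level at 100 µM (-0.81 ± 0.25, adjusted p = 0.033) was lost on leaving out any 1 library except the third at 200 µM (adjusted p = 0.05 to 0.14). *MMP10* (chromosome 11, 102770503 to 102780628, minus strand) had 0.243, 0.654 and 0.304 CPM in untreated cells, 0.128, 0.0649 and 0.227 CPM at 100 µM, and 0.979, 0.748 and 0.596 CPM at 200 µM. Its untreated libraries overlapped those at 200 µM, and it was called only between the doses, 5.40-fold higher at 200 µM than at 100 µM (2.43 ± 0.53, adjusted p = 0.0053), on 111 counts in all 9 libraries. *MMP11* was not called in any comparison, with an adjusted p of 0.41 at 200 µM and 0.37 at 100 µM.

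*MMP1*, *MMP3*, *MMP8* and *MMP10* are neighbours in a cluster of 9 MMP genes on chromosome 11 (GRCh38, 102520508 to 102955734, 435.2 kb). In chromosomal order these are *MMP7*, *MMP20*, *MMP27*, *MMP8*, *MMP10*, *MMP1*, *MMP3*, *MMP12* and *MMP13*, of which 4 were tested and *MMP27* had no count. Within the cluster *MMP10*, *MMP1* and *MMP3* had values below 0 at 100 µM and above 0 at 200 µM, and *MMP8*, next to *MMP10*, had the opposite signs. Between 200 µM and 100 µM all 4 were called, *MMP1*, *MMP3* and *MMP10* higher and *MMP8* lower (-1.76 ± 0.22, edgeR adjusted p = 0.00022). *MMP7* had 4 counts in 1 library at 100 µM and 0 elsewhere.

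**Figure D4:**
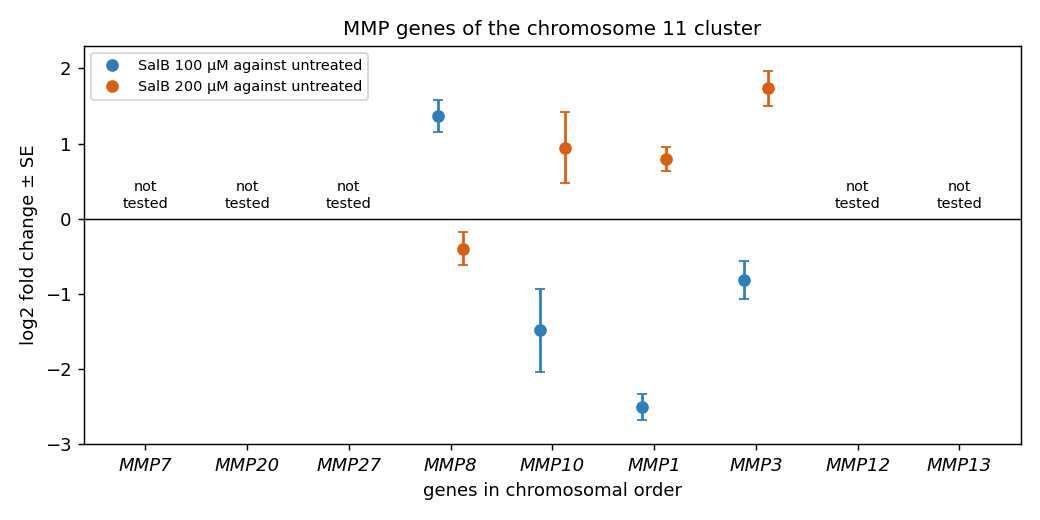
Log2 fold change ± SE against the untreated libraries, at 100 µM and at 200 µM, of the 9 MMP genes of chromosome 11 in their order along the chromosome. *MMP8* is higher at 100 µM, while *MMP10*, *MMP1* and *MMP3* have values below 0 at 100 µM and above 0 at 200 µM; 5 genes were not tested.

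The membrane-type MMPs are held on the cell surface, where MMP14 activates the MMP2 precursor. *MMP14* (chromosome 14, 22836557 to 22849027, plus strand) had 91.9, 92.7 and 95.7 CPM in untreated cells, 99.2, 88.9 and 92.6 CPM at 100 µM, and 170, 189 and 127 CPM at 200 µM. The libraries at 200 µM lay above all others, the third of them by the least, and those at 100 µM spanned the untreated range. Its log2 fold change was 0.80 ± 0.13 at 200 µM (edgeR adjusted p = 0.0017) and 0.00 ± 0.13 at 100 µM (adjusted p = 0.99); with the GC correction the value at 100 µM was -0.30 (adjusted p = 0.0024).

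*MMP15* (chromosome 16, 58025566 to 58046901, plus strand) had 6.83, 7.61 and 7.90 CPM in untreated cells, 24.9, 23.3 and 25.3 CPM at 100 µM, and 7.61, 8.19 and 4.77 CPM at 200 µM. Only the 100 µM libraries stood above the rest. It was 3.28-fold higher at 100 µM (log2 fold change 1.71 ± 0.18, adjusted p = 0.00018), changed by -0.12 ± 0.18 at 200 µM (adjusted p = 0.65; -0.28 and 0.04 with the GC correction), and was 3.56-fold lower at 200 µM than at 100 µM (-1.83 ± 0.19, adjusted p = 6.5e-05). *MMP16*, which per length was the second most abundant MMP in untreated cells at 100 ± 5.43 TPM, fell to 56.7 ± 10.6 TPM at 200 µM (-0.78 ± 0.16, adjusted p = 0.0041). *MMP17*, which is anchored by a lipid, rose by 0.67 ± 0.12 at 200 µM (adjusted p = 0.0024) and 0.43 ± 0.12 at 100 µM (adjusted p = 0.022); at 100 µM the call was lost without the first or the second untreated library or any library at 100 µM (adjusted p = 0.05 to 0.092), and with a correction for GC content the value was -0.02 (adjusted p = 0.92). *MMP24* fell by 0.99 ± 0.31 at 100 µM (adjusted p = 0.034), was not called without any 1 of the untreated or 100 µM libraries (adjusted p = 0.064 to 0.11), and shares 18.1% of its exon bases with *MMP24OS* on the opposite strand. *MMP25*, which shares 35.2% of its exon bases with *MMP25-AS1* on the opposite strand and whose level is therefore uncertain, was not called. Among the other MMPs, *MMP19* rose by 0.41 ± 0.14 at 100 µM (adjusted p = 0.043), a call lost without any 1 of the untreated or 100 µM libraries (adjusted p = 0.053 to 0.15), and 17.4% of its exon bases overlap *TMEM198B*. The call of *MMP19* was also lost under 4 other alternatives, among them the GC correction (edgeR adjusted p = 0.05 to 0.13).

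Among the ADAMs with a catalytic zinc motif, 7 of 12 were tested. *ADAM10* (chromosome 15, 58588807 to 58749978, minus strand), the sheddase of Notch and of several adhesion proteins, had 220, 229 and 210 CPM in untreated cells, 185, 202 and 206 CPM at 100 µM, and 228, 191 and 245 CPM at 200 µM. The 200 µM libraries fell on both sides of the untreated range, and the 100 µM libraries all lay below it. Its log2 fold change was 0.01 ± 0.10 at 200 µM (edgeR adjusted p = 0.95) and -0.15 ± 0.10 at 100 µM (adjusted p = 0.27), and neither was called, though with the GC correction both values were 0.21 (adjusted p = 0.017 at 200 µM and 0.019 at 100 µM). With the 2 groups compared alone, *ADAM10* was instead called lower at 100 µM (-0.14). *ADAM17* (chromosome 2, 9488486 to 9556732, minus strand), which releases TNF and ligands of the EGF receptor, had 69.8, 74.6 and 68.5 CPM in untreated cells, 65.4, 72.1 and 71.3 CPM at 100 µM, and 91.6, 83.0 and 110 CPM at 200 µM. All libraries at 200 µM lay above all others. It rose by 0.42 ± 0.11 at 200 µM (adjusted p = 0.015), changed by -0.03 ± 0.11 at 100 µM (adjusted p = 0.86), and shares 12.3% of its exon bases with *IAH1* on the opposite strand. Without the first or the third untreated library the rise at 200 µM was not called (adjusted p = 0.056 to 0.057), and with the GC correction the value at 100 µM was 0.32 (adjusted p = 0.0018).

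*ADAM19* (chromosome 5, 157395534 to 157575775, minus strand), a sheddase of neuregulin, had 35.6, 40.4 and 44.1 CPM in untreated cells, 55.5, 48.0 and 48.3 CPM at 100 µM, and 19.1, 21.4 and 16.1 CPM at 200 µM. The 200 µM libraries were the lowest and the 100 µM libraries the highest, with no overlap. It was 2.12-fold lower at 200 µM (log2 fold change -1.08 ± 0.13, edgeR adjusted p = 0.00027), and its difference at 100 µM was 0.34 ± 0.13 (adjusted p = 0.064). At 100 µM *ADAM19* was called higher with DESeq2 and with the 2 groups compared alone. The same held without the second or the third library at 200 µM (edgeR adjusted p = 0.007 to 0.03). *ADAM12* fell at both doses, by 0.98 ± 0.17 at 200 µM (adjusted p = 0.0023) and by 0.59 ± 0.17 at 100 µM (adjusted p = 0.025), the second of which was lost without any 1 of the untreated or 100 µM libraries (adjusted p = 0.053 to 0.085). *ADAM9*, the most abundant ADAM per length in untreated cells at 91.5 ± 2.21 TPM, had 136 ± 1.84 TPM at 100 µM (0.48 ± 0.10, adjusted p = 0.0058) and 73.2 ± 6.05 TPM at 200 µM (-0.28 ± 0.10, adjusted p = 0.055; -0.39 and adjusted p = 0.00018 without the third library at 200 µM). *ADAM15* was not called, and its libraries at 200 µM had 153, 167 and 69.2 CPM, the third far from the other 2. Without that library its change at 200 µM was 0.34 (adjusted p = 0.0032).

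The ADAMs without the zinc motif act as adhesion proteins and ligands rather than as proteases, and 4 of 8 were tested. *ADAM11* (chromosome 17, 44759031 to 44781846, plus strand) had 1.25, 1.89 and 1.89 CPM in untreated cells, 3.18, 2.69 and 4.31 CPM at 100 µM, and 2.07, 3.10 and 1.63 CPM at 200 µM. It was highest at 100 µM except that 1 library at 200 µM lay among those at 100 µM. The rise at 100 µM, 1.01 ± 0.29 (edgeR adjusted p = 0.024), was lost without the first or the second untreated library or the first or the third library at 100 µM (adjusted p = 0.053 to 0.089). With the GC correction, alone or with a replicate block, it was 0.65 to 0.66 and not called (edgeR adjusted p = 0.064 to 0.068). *ADAM22* and *ADAM23*, partners of the LGI proteins at synapses, fell at 200 µM by 0.58 ± 0.15 (adjusted p = 0.014) and 0.33 ± 0.11 (adjusted p = 0.036), and the call of *ADAM23* was lost on leaving out any 1 library except the third untreated or the third at 200 µM (adjusted p = 0.052 to 0.11).

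The ADAMTS enzymes that cut aggrecan and versican and their relatives split at 100 µM, with *ADAMTS1* and *ADAMTS9* lower and *ADAMTS4* and *ADAMTS15* higher. *ADAMTS1* (chromosome 21, 26835747 to 26845409, minus strand) had 21.6, 18.0 and 19.3 CPM in untreated cells, 4.34, 5.00 and 4.41 CPM at 100 µM, and 20.1, 20.2 and 17.4 CPM at 200 µM. Only the 100 µM libraries stood apart, all of them low. It was 4.29-fold lower at 100 µM (log2 fold change -2.10 ± 0.12, edgeR adjusted p = 8.5e-06), changed by -0.03 ± 0.11 at 200 µM (adjusted p = 0.86), and was 4.20-fold higher at 200 µM than at 100 µM (adjusted p = 3.2e-06). *ADAMTS9* (chromosome 3, 64515654 to 64688000, minus strand) had 7.66, 6.99 and 6.69 CPM in untreated cells, 2.70, 2.63 and 2.40 CPM at 100 µM, and 8.7, 9.68 and 11.9 CPM at 200 µM. The 3 groups did not overlap. It changed by 0.50 ± 0.14 at 200 µM (adjusted p = 0.021), by -1.46 ± 0.15 at 100 µM (adjusted p = 0.00013) and by 1.97 ± 0.15 between 200 µM and 100 µM (adjusted p = 1.2e-05); the call at 200 µM was lost without the second or the third untreated library (adjusted p = 0.071 to 0.077).

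*ADAMTS15* (chromosome 11, 130448974 to 130476641, plus strand) had 2.49, 1.45 and 1.62 CPM in untreated cells, 5.43, 5.35 and 7.26 CPM at 100 µM, and 4.06, 4.81 and 1.99 CPM at 200 µM. The 100 µM libraries were all high, and the third library at 200 µM lay within the untreated range. It was 3.24-fold higher at 100 µM (log2 fold change 1.70 ± 0.34, edgeR adjusted p = 0.0043). At 200 µM it was called at 0.97 ± 0.34 (adjusted p = 0.049), a call lost on leaving out any 1 library except the first untreated or the third at 200 µM (adjusted p = 0.064 to 0.15). *ADAMTS4* rose by 0.89 ± 0.20 at 100 µM (adjusted p = 0.0079) and changed by -0.08 at 200 µM (adjusted p = 0.80).

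*ADAMTS7* (chromosome 15, 78759203 to 78811431, minus strand), which like *ADAMTS12* cuts cartilage oligomeric matrix protein, had 2.81, 2.55 and 3.0 CPM in untreated cells, 8.38, 8.76 and 7.39 CPM at 100 µM, and 4.86, 6.05 and 3.89 CPM at 200 µM. The groups did not overlap, and the 200 µM libraries lay between the others. Its log2 fold change was 0.82 ± 0.18 at 200 µM (edgeR adjusted p = 0.0062) and 1.55 ± 0.18 at 100 µM (adjusted p = 0.00025). Its level is uncertain because the annotation names 3 pseudogene copies that could share its reads. *ADAMTS12* rose at 100 µM by 0.46 ± 0.10 (adjusted p = 0.0059).

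*ADAMTS6* (chromosome 5, 65148736 to 65481920, minus strand), which acts in microfibril assembly, had 4.85, 4.79 and 4.25 CPM in untreated cells, 2.28, 2.82 and 2.98 CPM at 100 µM, and 1.60, 1.28 and 3.02 CPM at 200 µM. All treated libraries lay below all untreated ones, and the third library at 200 µM was the highest of the treated ones. It was 2.36-fold lower at 200 µM (log2 fold change -1.24 ± 0.29, edgeR adjusted p = 0.0093), and its value at 100 µM was -0.78 (adjusted p = 0.058). At 100 µM *ADAMTS6* was called lower with DESeq2 and with the 2 groups compared alone. The same held without the second or the third library at 200 µM (edgeR adjusted p = 0.003 to 0.029). *ADAMTS17* rose at 200 µM by 0.90 ± 0.21 (adjusted p = 0.0086) and *ADAMTS16* at 100 µM by 0.80 ± 0.23 (adjusted p = 0.022), the call of *ADAMTS16* being lost without the first or the second untreated library or the first or the third library at 100 µM (adjusted p = 0.061 to 0.083). *ADAMTS10*, a partner of fibrillin, and *ADAMTS19* were called between the doses alone, both lower at 200 µM than at 100 µM, with log2 fold changes of -1.21 ± 0.26 (adjusted p = 0.0046) and -1.52 ± 0.49 (adjusted p = 0.032). *ADAMTS10* was also called against untreated cells under some alternatives, lower at 200 µM with the GC correction (-0.77, adjusted p = 0.0054) and higher at 100 µM without the third library at 200 µM (0.64, adjusted p = 0.0062). The call of *ADAMTS19* was lost without the first or the third library at 100 µM or the first at 200 µM (adjusted p = 0.059 to 0.13). The procollagen N-proteinases, of which 2 of 3 were tested, and *ADAMTS13*, which cuts von Willebrand factor, were not called in any comparison. Neither were *ADAM8*, *ADAM32*, *ADAMTS20* and *MMP21*. Some of these genes were called under an alternative: *ADAM32* at 100 µM (1.44 ± 0.52, adjusted p = 0.054) in 6 of 18 alternatives (adjusted p = 0.014 to 0.049), and between the doses with the GC correction (-1.42, adjusted p = 0.042). With that correction *ADAM8* was called lower (-0.86, adjusted p = 0.032) and *ADAMTS3*, a procollagen N-proteinase, higher (0.30, adjusted p = 0.039) at 100 µM. Without the third library at 200 µM *MMP21* was called lower at 200 µM (-0.86, adjusted p = 0.043) and *ADAMTS3* lower between the doses (-0.34, adjusted p = 0.049), and without the first *ADAMTS20* was called lower between the doses (-2.60, adjusted p = 0.044).

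Members outside the tests were at the edge of detection. The 11 members with counts but below the filter had 2 to 65 counts over all 9 libraries, against 69 to 342128 for the tested ones. Besides *TIMP4*, *MMP7* and *MMP13* these were *ADAM20*, *ADAM21*, *ADAM28*, *ADAMTS8*, *ADAMTS14*, *MMP12*, *MMP20* and *MMP28*. At 0 in every library were *ADAM2*, *ADAM7*, *ADAM18*, *ADAM29*, *ADAM30*, *ADAM33*, *ADAMTS5*, *ADAMTS18*, *MMP26* and *MMP27*. A count of 0 allows a level of up to 0.0979 to 0.11 CPM per library (the floor of 3 counts, on unscaled totals), which covers counting error only.

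The third library at 200 µM differed from the others of its group in step with GC content. Of the 12 tested members whose longest annotated transcript had at least 60% GC, 11 were lower in it than the mean of the other 2 libraries (median log2 difference -0.71), against 10 of the 32 below 60% GC (median 0.23). Across the 44 members the Spearman coefficient of this difference with GC content was -0.61, and across all 13874 genes with a known GC content it was also -0.61; genes share libraries and are not independent replicates. The coefficients of GC content with the log2 fold change were 0.13 at 200 µM and 0.19 at 100 µM for the members, against 0.22 and 0.48 for all genes. The part of GC content in the fold changes was not tested beyond the correction reported with the other alternatives.

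**Figure D5:**
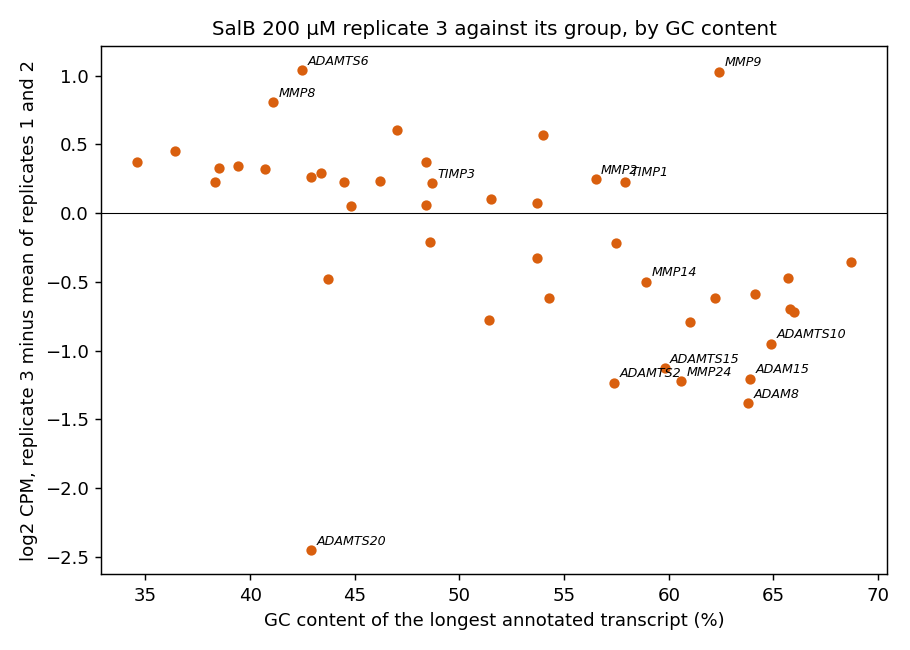
Log2 difference of CPM between the third library at 200 µM and the mean of the other 2 libraries of its group, against the GC content of the longest annotated transcript, for the 44 tested members (1 point each). Members of at least 60% GC lie below 0 in 11 of 12 cases.

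Genes that activate MMPs or inhibit them outside the TIMP family were read from the same fit. Of 22 tested, 9 were higher and 2 lower at 200 µM (median log2 fold change 0.36), and 3 were higher and 9 lower at 100 µM (median -0.24). Over all genes tested 19.8% were higher and 17.5% lower at 200 µM (median 0.00), and 18.9% were higher and 18.2% lower at 100 µM (median -0.01). *A2M*, a secreted trap of proteases, had 344 ± 11.5 CPM at 200 µM and 43.9 ± 2.41 CPM at 100 µM (2.97 ± 0.08, edgeR adjusted p = 6.9e-08), and its level in untreated cells was 199 ± 8.10 CPM. *TFPI2*, a matrix-bound inhibitor of plasmin, had 59.6 ± 11.9 CPM at 200 µM and 11.7 ± 2.31 CPM at 100 µM (2.34 ± 0.18, adjusted p = 1.5e-05). Its level in untreated cells was 53.9 ± 2.22 CPM. Against these it was lower at 100 µM (-2.20 ± 0.18, edgeR adjusted p = 4.4e-05) and was not called at 200 µM. Of 12 partners of ADAM10 and ADAM17, 3 were higher and none lower at 200 µM, and 2 were higher and 3 lower at 100 µM, with medians of 0.25 and 0.01. The share of partners called at 200 µM, 3 of 12, was below the 37.3% of all genes. *RHBDF2*, which carries ADAM17 to the cell surface, rose at both doses, by 1.00 ± 0.18 at 200 µM (adjusted p = 0.0023) and 1.17 ± 0.18 at 100 µM (adjusted p = 0.0011).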

How the data were processed

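RNA was sequenced from A375 cells in 9 libraries. The authors deposited whole-number read counts per gene, unnormalized. The submitters' processing notes list GRCh38 and the tools HISAT2, featureCounts, DESeq2 and FastQC; versions, annotation and strand setting: not given in the sources used here. Features without an Ensembl identifier (2142 assembled transcripts, 1.25% to 1.41% of counts) were left out of the tests. A further deposited table of 100 features holds no member and was not used.

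Counts were fitted in R 4.3.3 with edgeR 4.0.16 (filterByExpr, TMM, robust quasi-likelihood model with group as its term, 6 residual degrees of freedom). SE was obtained from each log2 fold change and its F value (absolute value over root F). DESeq2 1.42.0 was an alternative. The fit was tested on simulated data. An exact permutation test of 3 against 3 libraries cannot pass 0.05 and was not used. p-values measure the spread between these libraries. No pair of libraries within a group matched within sampling noise (chi-square per degree of freedom 7.22 to 148). GENCODE v29 gave positions, lengths, GC content and overlaps, and overlaps of at least 10% of exon bases are given. Coordinates are GRCh38.

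Values in every library are given for members called with a log2 fold change of at least 1 against untreated cells, the TIMPs, 7 landmark proteases, and the 6 largest changes between doses; other members and lists are counted, with at most 3 genes named per list and comparison. *ADAM9*, *ADAM12* and *ADAM15* and other members outside this rule are named to account for the counts. Members and lists were chosen with earlier results of these data known. Alternatives were other scalings, filters and tests, 1 library left out, the compared groups alone, a replicate block, a GC correction, and the assembled transcripts kept.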

Additional observations from a re-analysis of the deposited data

How the results depend on the processing

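Of the calls among members, 15 of 19 at 200 µM, 14 of 22 at 100 µM and 18 of 23 between the doses held under all 19 alternatives. Of 2476 values of a member under an alternative, 2283 kept their direction and their side of the threshold, 122 lost a call (84 of them with 1 library left out), 61 gained one and 10 reversed. The reversed values are all at 100 µM against untreated cells, under the GC correction and the same with a replicate block: *ADAM10* was 0.21 and 0.21 (edgeR adjusted p = 0.019 and 0.039), *ADAM17* 0.32 and 0.32 (0.0018 and 0.006), *MMP14* -0.30 and -0.30 (0.0024 and 0.01), *MMP16* 0.22 and 0.22 (0.0071 and 0.021), and *MMP17* -0.015 and -0.015 (0.92 and 0.92); the cause was not tested.

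At 100 µM against untreated cells, fitting those groups alone called 8417 genes, 4098 higher and 4319 lower, against 5181 (2640 higher and 2541 lower) with all 9 libraries. Fitted that way, *ADAM10* (-0.14) and *MMP16* (-0.22) were called lower, the opposite of their direction with the GC correction. Leaving out 1 library gave 3469 to 7943 genes (1837 to 4056 higher, 1613 to 3887 lower) and 14 to 27 members (5 to 11 lower), with 14 without the first library at 100 µM and 27 without the third at 200 µM. Same-numbered libraries did not deviate together (correlations -0.16 to 0.03 over 9 pairs, 1 of which was the best for its library). These values showed no pairing by number, but 3 libraries a group cannot exclude a paired design. With a replicate block the fits called 4369, 4264 and 5404 genes at 200 µM, at 100 µM and between the doses, and 16, 18 and 19 members. Sparse members such as *MMP10* are limited by counting, and the p-values by 3 libraries a group.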

Other observations

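Most tested transcripts of matrix proteins that these enzymes cut were higher at 100 µM. For the lists below, the shares called among all 13968 genes tested were 19.8% higher and 17.5% lower at 200 µM, 18.9% and 18.2% at 100 µM, and 22.4% and 21.9% between 200 µM and 100 µM, with median log2 fold changes of 0.00, -0.01 and -0.01. Of 36 tested matrix substrates, 12 were higher and 6 lower at 200 µM (median log2 fold change 0.18), and 25 were higher and 1 lower at 100 µM (median 0.96). Between 200 µM and 100 µM 3 were higher and 21 lower (median -0.76). *VCAN*, the proteoglycan versican that ADAMTS enzymes cut, had 23.3 ± 1.55 CPM at 100 µM and 3.11 ± 0.341 CPM in untreated cells (2.91 ± 0.18, edgeR adjusted p = 9.2e-06). *THBS1*, the matrix protein thrombospondin 1, was higher at 200 µM by 2.68 ± 0.06 (adjusted p = 1.2e-07) and at 100 µM by 2.70 ± 0.06 (adjusted p = 3.7e-08). Summed fibroblast and endothelial markers, which include collagen genes of this list, were 46.3 to 51.1 CPM at 200 µM, 64.5 to 67.0 CPM at 100 µM and 48.6 to 52.1 CPM in untreated cells, and their part in the result was not tested.

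Among 27 tested substrates of the ADAM sheddases, 14 were higher and 1 lower at 200 µM (median 0.48), and 13 were higher and 7 lower at 100 µM (median 0.40). *HBEGF*, a ligand of the EGF receptor, had 32.6 ± 0.309 CPM at 200 µM and 5.01 ± 0.394 CPM at 100 µM (2.70 ± 0.11, edgeR adjusted p = 4.9e-07). Its level in untreated cells was 8.84 ± 0.726 CPM. *TGFA*, the 1 substrate called lower at 200 µM, had 72.0 ± 5.96 CPM there and 225 ± 6.92 CPM in untreated cells (-1.64 ± 0.08, edgeR adjusted p = 2.7e-06). *TGFA* was also called lower at 100 µM, and lower at 200 µM than at 100 µM. Of 18 AP-1, ETS and NF-kB factors with described sites in *MMP* promoters, 12 were higher and 1 lower at 200 µM (median 0.72), and 6 were higher and 6 lower at 100 µM (median -0.01). Between 200 µM and 100 µM 13 were higher and 1 lower, led by *FOSB* (4.46 ± 0.16, adjusted p = 2.2e-07), *JUN* (2.39 ± 0.12, adjusted p = 1.4e-06) and *FOSL1* (2.11 ± 0.16, adjusted p = 1.4e-05), which encode subunits of AP-1. At 100 µM the NF-kB subunits *RELB* (-1.82 ± 0.16, adjusted p = 5.7e-05) and *NFKB2* (-1.23 ± 0.13, adjusted p = 0.00016) were lower. The subunits did not move together, as *RELA* was called higher at 100 µM. Summed leukocyte markers were 59.8 to 85.4 CPM at 200 µM, 18.4 to 20.6 CPM at 100 µM and 21.9 to 25.6 CPM in untreated cells, with 4 of 12 markers at 0 throughout. *CD68* carried most of this sum, with 65.5 ± 15.1 CPM at 200 µM and 19.2 ± 1.84 CPM in untreated cells (1.77 ± 0.17, adjusted p = 7.4e-05), and shares 81.7% of its exon bases with another gene. *CD14* was also higher at 200 µM (2.26 ± 0.47, edgeR adjusted p = 0.0049). It had 0.998 ± 0.454 CPM there and 0.205 ± 0.0562 CPM in untreated cells. *LYZ* was lower at 200 µM (-0.95 ± 0.26, adjusted p = 0.017, with 34.0% of its exon bases overlapping another gene), and the pan-leukocyte marker *PTPRC* had at most 3 counts in any library. The part of these markers in the results was not tested. Of 5 tested ADAMTS-like genes, 1 was higher and 1 lower at 200 µM, and 4 were higher at 100 µM (medians -0.17 and 0.75).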
